A study of Felis catus with 23 samples.

Results

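The miRNAs miR-494, miR-409-3p, miR-381-3p and miR-376c-3p (hsa-miR-494, hsa-miR-409-3p, hsa-miR-381-3p and hsa-miR-376c-3p in full), whose human genes lie in the imprinted DLK1-DIO3 gene cluster, were followed in cat serum. They were picked by name after a comparison of cats with hypertrophic cardiomyopathy (HCM) and healthy cats on these same arrays, so their differences between the groups describe why they were chosen, and a test of them on these arrays supports nothing further. They are 4 of the 2026 miRNA names on the array and carry 8 of its 4944 miRNA probes. Each name has 2 probes with 15 spots each, and all 8 probes are also among the 1758 probes of the series table deposited by the authors. HCM is a thickening of the heart muscle that is common in cats. Serum from 11 cats labelled as diseased with HCM and from 12 cats labelled as healthy was measured on 23 arrays, with 1 array per cat. The labels give no age, breed, sex, stage or treatment for either group, and all sera were collected in the same way. The arrays carry probes for 1887 human and 139 viral miRNA names. Every miRNA named below carries the human name of a probe and was not checked against the cat genome.

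The DLK1-DIO3 cluster is an imprinted stretch of the genome, which means that its genes are read from the copy of one parent only. Its miRNAs are made from the maternal copy as parts of long noncoding transcripts, and they are abundant in the embryo, the placenta and the brain and scarcer in most adult tissues. miRNAs act by pairing with messenger RNAs, which lowers the protein made from them, and some of them circulate in serum in vesicles or bound to proteins. In the RefSeq annotation of the cat assembly F.catus_Fca126_mat1.0, DLK1, RTL1 and DIO3 follow each other in this order on chromosome B3. Between DLK1 and DIO3 that annotation lists 67 genes, of which 51 are small nucleolar RNAs, 7 are long noncoding RNAs and 3 are protein coding. The rest are pseudogenes and a transfer RNA, and no gene of this stretch is listed as a miRNA. The annotation therefore does not show whether the cat carries these miRNAs there.

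The arrays sat on 3 slides, with 3 HCM and 4 healthy arrays on slide 1 and 4 of each on slides 2 and 3. HCM arrays were always in row 1 of a slide and healthy arrays in row 2, so the row and the group cannot be told apart. The 75th percentile of intensity, taken over 508 probes detected on all arrays, lay between 90.5 and 699, and between 323 and 615 names were detected on an array. HCM arrays were on average brighter, at a log2 75th percentile of 8.22 ± 0.49 (SD, n = 11) against 7.80 ± 0.91 (SD, n = 12). With that percentile as a covariate, an alternative chosen after seeing the data, the HCM minus healthy differences given below were 0.60 for miR-381-3p, 0.58 for miR-376c-3p, 0.25 for miR-409-3p and -0.89 for miR-494 on the log2 scale. The red cell miRNAs miR-451a, miR-144-3p, miR-486-5p, miR-25-3p and miR-92a-3p were detected on all 23 arrays. Few sera gave a detected signal for miR-16-5p (1 HCM, 2 healthy) or miR-486-3p (1 HCM, 0 healthy), and none did for miR-144-5p. Of the 8 red cell names, 7 were detected on at least 1 array. Their summed scaled intensity ran from 2090 to 13249 in HCM (median 4610) and from 1755 to 17821 in healthy serum (median 4155). Of the 7 heart and skeletal muscle names, miR-1 and miR-208a were detected on no array. A detected signal of miR-133b came from 6 HCM and 4 healthy sera, and of miR-206 from 2 and 1. Detected signal of miR-208b (2 sera), miR-133a (1) and miR-499a-5p (1) came from HCM cats only. The sum of the 7 muscle names ran from 5.42 to 989 in HCM (median 11.9) and from 3.55 to 51.1 in healthy serum (median 11.5).

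Levels are given as scaled intensity, which is the mean spot brightness after each array was set to the same 75th percentile. A probe was called detected when the scanner software had marked 50% or more of its spots as well above background. For log2 values, scaled intensities under 5.65 were set to this floor, which lies at 2.50 on the log2 scale. Each miRNA is represented by the brighter of its probes.

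miR-381-3p (hsa-miR-381-3p), which shares the seed that pairs with its targets with miR-300 of the same cluster, was seen mainly in HCM serum. In HCM cats its scaled intensity had a lowest value of 0.336, a median of 7.39 and a highest value of 25.6. In healthy cats the lowest value was 0.794, the median 1.63 and the highest 5.08. Of the 11 HCM sera, 9 lay above the highest healthy serum, while HCM replicates 2 and 7 lay within or below the healthy range. HCM replicate 1 was the highest, followed by replicates 5 and 10 at 12.7 and 11.4 and by replicate 12. The probe was detected on 8 HCM and 2 healthy arrays. The healthy arrays with a detected signal, replicates 15 and 26, were the brightest of their group, with 75th percentile intensities of 699 and 390, and both fell under the floor after scaling. On the log2 scale miR-381-3p was at 3.14 ± 0.65 (SD, n = 11) in HCM and at the floor in all healthy cats, a difference of 0.64 (SE 0.19). The floor limits the size of that difference. The related miR-300 was detected on no array.

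miR-376c-3p (hsa-miR-376c-3p), which in human ovarian cells lowers a receptor for nodal-type ligands, showed the same kind of pattern. In HCM cats the lowest scaled intensity was -0.245, the median 7.27 and the highest 34.3, where a value below 0 means less signal than background. In healthy cats the lowest was -0.175, the median 0.934 and the highest 3.59. HCM replicate 1 again stood highest, with replicates 12 and 10 next at 15.3 and 12.8, and 8 of the 11 HCM sera lay above the highest healthy one. HCM replicates 2, 7 and 9 overlapped with the healthy sera. The probe was detected on 6 HCM arrays and on 0 of 12 healthy arrays. The scanner software's call per name, which uses its own rule, found miR-376c-3p on 8 HCM arrays and 1 healthy array. On the log2 scale the level was 3.13 ± 0.81 (SD, n = 11) in HCM, with all healthy cats at the floor and a difference of 0.63 (SE 0.23). The probe was not well above background on any healthy array and was at the floor on 4 HCM arrays, so no fold is given.

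Its close relatives miR-376a-3p and miR-376b-3p differ from it by few bases, so that probes for the miR-376 group may share signal. miR-376a-3p was detected on 3 HCM arrays, those of replicates 1, 12 and 10, at scaled intensities of 14.3, 8.81 and 7.27 on its brighter probe. These are the same 3 sera that held most miR-376c-3p, in the same order. The remaining 8 HCM sera and all 12 healthy sera had no detected miR-376a-3p, with a highest healthy value of 1.14. miR-376b-3p was detected on no array. How far probes for the group share signal was not tested.

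miR-409-3p (hsa-miR-409-3p), which lowers the vessel growth factor angiogenin in human fibrosarcoma cells, was dim in both groups. Its scaled intensity in HCM had a lowest value of 4.16, a median of 6.61 and a highest of 15.04. In healthy serum the lowest was 2.84, the median 6.08 and the highest 10.6. The groups overlapped over most of their range, and only HCM replicates 1 and 5, at 15.04 and 11.3, lay above the highest healthy serum. That healthy serum, replicate 20, was on the dimmest array (75th percentile 90.5), and the probe was not detected there. Detection was seen on 8 HCM and 4 healthy arrays, and by the scanner's call per name on 10 and 7. The log2 level was 2.91 ± 0.43 (SD, n = 11) in HCM and 2.70 ± 0.27 (SD, n = 12) in healthy serum, a difference of 0.21 (SE 0.16). Without HCM replicate 1 the difference of miR-409-3p was 0.11.

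miR-494 (hsa-miR-494), reported in mice to protect heart muscle against injury when blood flow returns after ischaemia, gave far brighter spots than the other 3 and was lower in HCM, where the others were higher except after the normexp background described below. It was detected on all 23 arrays. Its scaled intensity had a lowest value of 127, a median of 287 and a highest value of 481 in HCM. In healthy serum the lowest was 161, the median 472 and the highest 1078. Of the 11 HCM sera, 10 lay below the healthy median, and 6 of the 12 healthy sera, replicates 17, 21, 19, 18, 14 and 22, lay above the highest HCM serum. The other 6 healthy sera overlapped with HCM, and HCM replicate 2 was the lowest of all. On the log2 scale miR-494 was at 8.12 ± 0.62 (SD, n = 11) in HCM and 8.86 ± 0.94 (SD, n = 12) in healthy serum, a difference of -0.74 (SE 0.32). Different probes respond differently to the same amount of RNA, so the brightness of miR-494 against the other names does not rank their amounts.

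**Figure D1:**
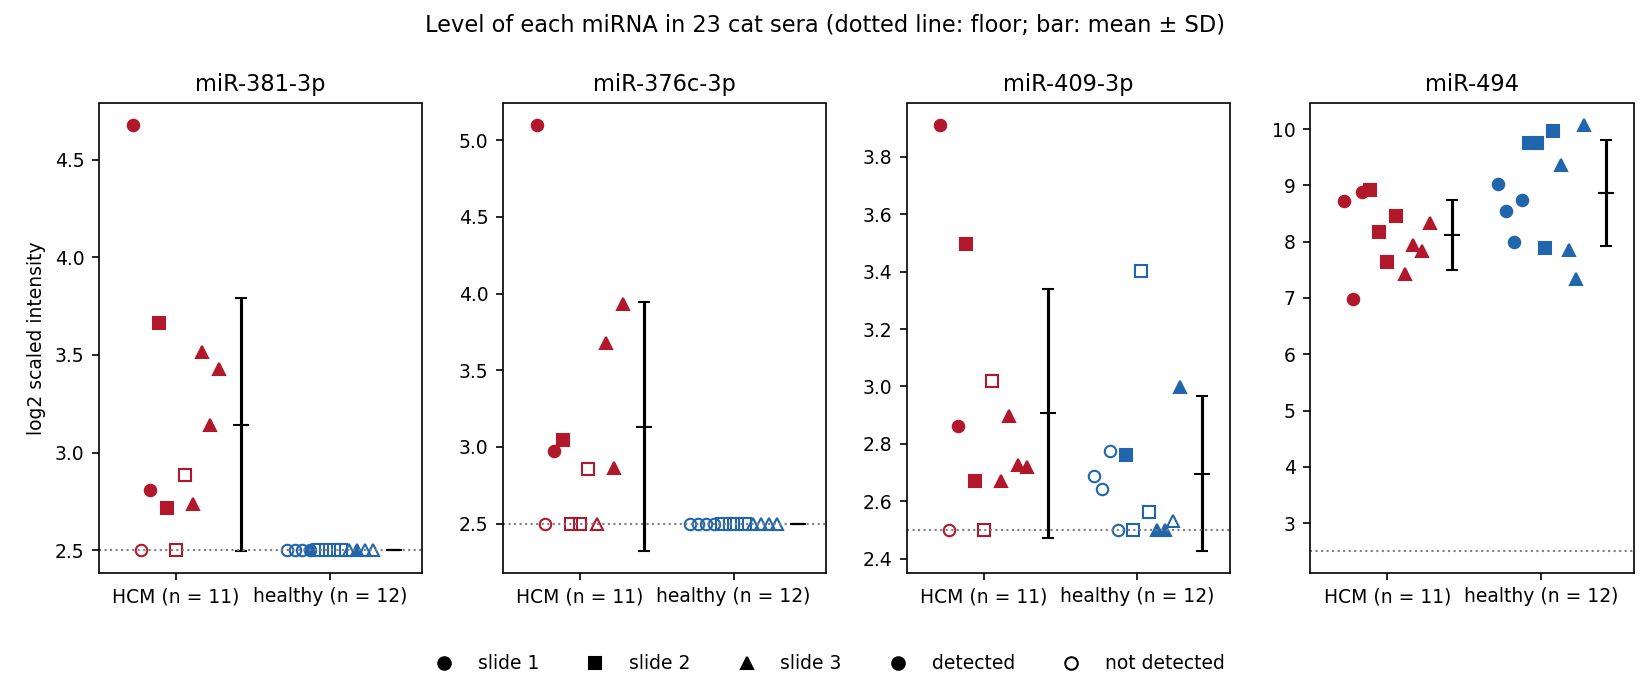
Level of the 4 cluster miRNAs in each serum, as log2 scaled intensity on the vertical axis, for 11 HCM (red) and 12 healthy cats (blue). Marker shapes give the slide, filled markers are detected and open ones not, the dotted line is the floor at 2.50 and the bars are mean ± SD. All healthy sera are at the floor for miR-381-3p and miR-376c-3p, whereas 9 and 7 HCM sera lie above it, and miR-494 reaches up to 10.07 in healthy serum against 8.91 in HCM. The vertical scale differs between panels.

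The 4 differences were then set beside those of all names tested. With limma on all 543 names detected on at least 6 arrays, 0% passed an adjusted p of 0.05 (0 names, with 37 at an unadjusted p under 0.05 and a lowest adjusted p of 0.303), so that 0 of the 4 miRNAs passed. The median difference of all tested names was -0.10 and the median standard error 0.22. On the deposited log2 values the same test called 0.921% of names, which are miR-381-3p, miR-376c-3p, miR-4751, miR-513a-3p and miR-5700. With a lower floor, a scaled intensity of 1, it called 0.368%, namely miR-376c-3p and miR-381-3p. On the scanner software's total gene signal it called 0.737%, again with both of these names. Since the miRNAs were chosen on this contrast, nothing is read from their presence among the calls.

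The size of the differences changed with the processing. For miR-381-3p the difference was 1.38 on the deposited values, 1.99 with the lower floor and 0.12 with a floor at 2 times the main one. The corresponding values of miR-376c-3p were 1.48, 2.33 and 0.20, and with the higher floor miR-409-3p was at 0.037. Normexp is a background model, run here with an offset of 50 added to every spot before scaling. After normexp miR-409-3p, miR-381-3p and miR-376c-3p were at -0.22, -0.10 and -0.067, all with the opposite sign. The median of all tested names was then -0.25, so these 3 stayed above that median. In the main processing the highest unscaled intensity of these 3 miRNAs was 35.4, which is under that offset. The part of the offset in the change of sign was not tested. Without scaling between arrays the median was 0.24, and the difference was 0.51 for miR-409-3p and -0.32 for miR-494. The sign of the miR-494 difference was the same in every processing shown in the plot of differences by processing, from -0.89 to -0.32.

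**Figure D2:**
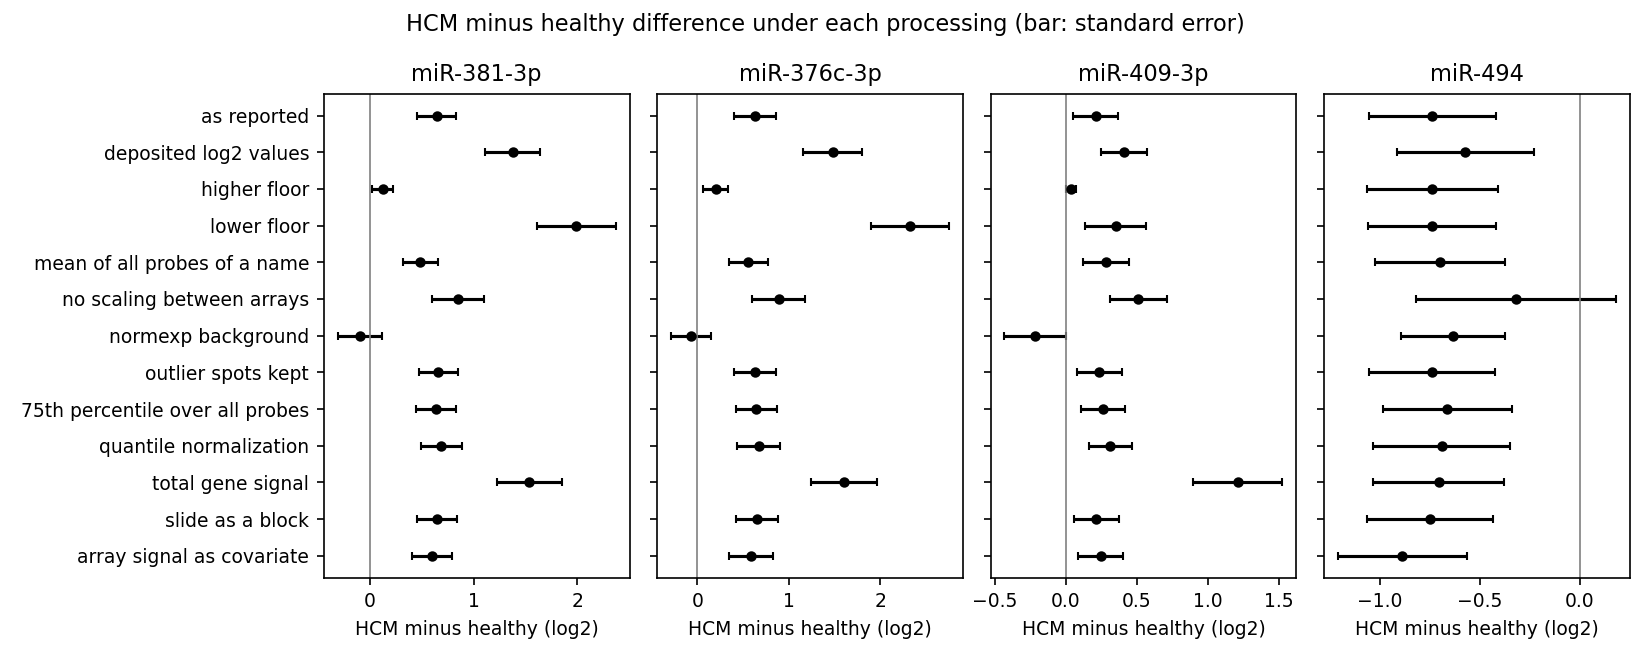
HCM minus healthy difference (log2 scaled intensity, horizontal axis) of each miRNA under each way of processing the arrays, with bars for the standard error. miR-381-3p spans -0.10 to 1.99 and miR-376c-3p -0.067 to 2.33, with only the normexp background below 0, and miR-494 lies below 0 in every line. The horizontal scale differs between panels.

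Both groups were present on each slide, so the differences could be taken within slides. They were 0.83, 0.44 and 0.71 on slides 1, 2 and 3 for miR-381-3p and 1.03, 0.23 and 0.74 for miR-376c-3p. miR-409-3p gave 0.44, 0.12 and 0.12. For miR-494 the values were -0.37, -1.05 and -0.77. The direction was thus the same on each slide for each of the 4, although they were chosen on the same arrays. For miR-381-3p and miR-376c-3p all healthy sera were at the floor, so these differences could not fall below 0 on any slide. A limma test of the group by slide interaction, which the choice did not use, called 0 of 543 names (13 at an unadjusted p under 0.05), with unadjusted p of 0.728 for miR-381-3p, 0.375 for miR-376c-3p, 0.677 for miR-409-3p and 0.713 for miR-494. The limma test for level differences between slides called 0 of 543 names as well (68 at an unadjusted p under 0.05), and the 4 miRNAs had unadjusted p between 0.320 and 0.736. With 3 or 4 arrays of a group on a slide, a difference between slides of the size of the SD between cats may go unseen.

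The probes of a name were compared with each other. Over the 11 HCM sera the brighter and the second probe correlated at r = 0.98 for miR-381-3p, 0.997 for miR-376c-3p, 0.99 for miR-409-3p and 0.99 for miR-494. In healthy serum, where the first 3 were near background, r was 0.85, 0.58 and 0.84 for these and 0.99 for miR-494. These r values describe the measurement only, since both probes were read from the same RNA on the same array. The second probe of miR-381-3p was dimmer, detected on 4 HCM arrays and 0 healthy arrays, and gave a difference of 0.33. For the second probes of miR-376c-3p, miR-409-3p and miR-494 the difference was 0.48, 0.35 and -0.66. These probes were read on the arrays on which the miRNAs were chosen, so their differences are a description too.

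**Figure D3:**
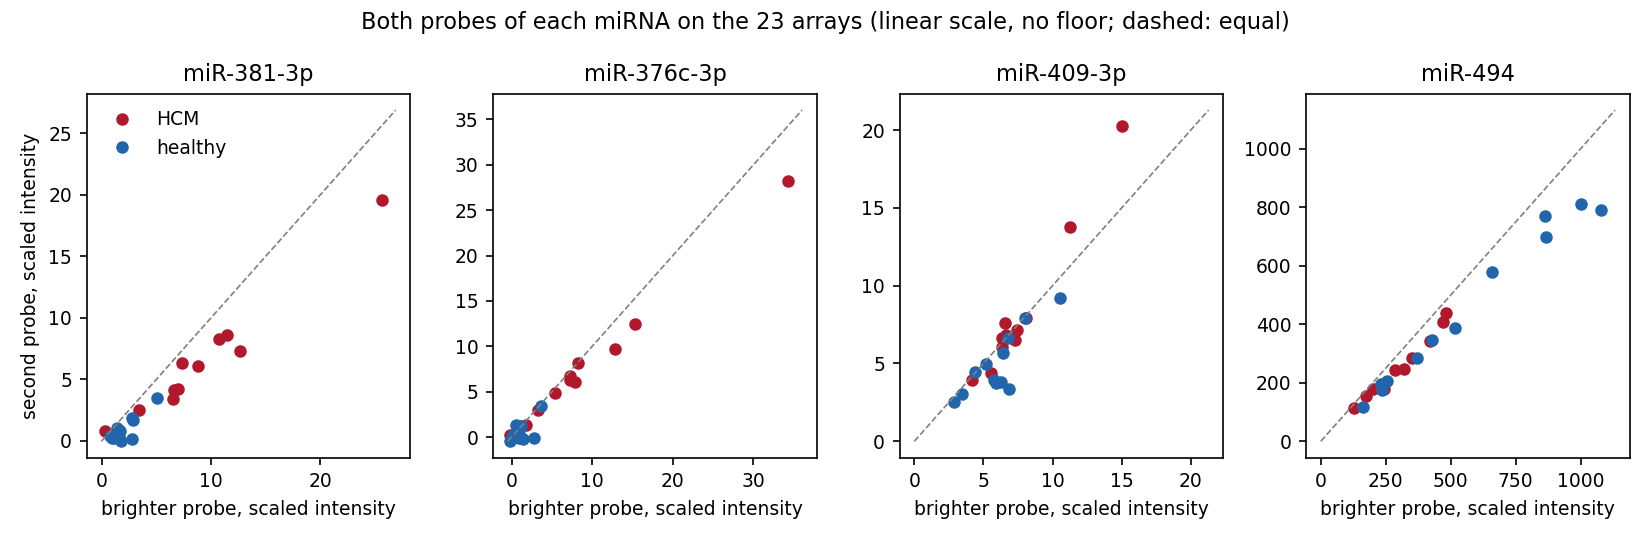
Scaled intensity of the second probe (vertical axis) against the brighter probe (horizontal axis) of each miRNA on the 23 arrays, on a linear scale without a floor, with HCM in red and healthy in blue; the dashed line marks equal values. The HCM points follow a line in all panels, and the second probe of miR-494 reads lower on every array.

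The error from spots of 1 array, which is technical, was set beside the spread between cats. With 1 array per cat, that spread also holds any error between arrays, which the spots of 1 array do not measure. On arrays where the brighter probe was detected, the median coefficient of variation over its spots was 19.9% for miR-381-3p, 14.97% for miR-376c-3p, 16.97% for miR-409-3p and 4.15% for miR-494. This gives a median standard error of the mean of 0.074, 0.057, 0.063 and 0.015 on the log2 scale, against SDs between HCM cats of 0.65, 0.81, 0.43 and 0.62. These SDs were taken over all 11 HCM arrays, with values at the floor included. Among the other 542 tested names, 13.7% had a larger SD between HCM cats than miR-376c-3p, 24.7% than miR-381-3p, 28.4% than miR-494 and 58.5% than miR-409-3p. The median SD of all tested names was 0.47 in HCM and 0.55 in healthy serum. In healthy serum miR-494 had an SD of 0.94, and 59 of the other 542 names had a larger one. The floor removes spread from dim names, so the SDs of the 3 dim miRNAs are smaller than they would be without it.

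Within the HCM group the order of the sera was partly shared. HCM replicate 1 was the highest for the 3 dim miRNAs, and replicate 5 was second for miR-381-3p and miR-409-3p and first for miR-494. HCM replicate 2 was at the floor for the 3 dim miRNAs and lowest for miR-494, and replicate 7 was also at the floor for all 3. The order differed elsewhere, as HCM replicate 12 was second for miR-376c-3p but among the lower sera for miR-409-3p, at 6.59. HCM replicate 2 was the dimmest HCM array, with a 75th percentile intensity of 152 and 362 names detected. HCM replicate 1 had a 75th percentile intensity of 264, the third lowest of the HCM arrays, with 479 names detected. It also had the lowest log2 difference of miR-451a and miR-23a-3p of all 23 arrays, at -3.86.

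The 6 relations among the 4 miRNAs were computed over the 11 HCM sera as 1 family, with 2-sided permutation tests of 100000 resamples. miR-381-3p and miR-376c-3p had a Pearson r of 0.93 (adjusted permutation p 0.00219) and a Spearman rho of 0.91 (adjusted permutation p 0.00120). Without the 2 sera farthest from the median of miR-381-3p, r was 0.92 (permutation p 0.00150). Of the 542 other names, miR-376c-3p was the one most correlated with miR-381-3p, and the reverse held too. The median r of miR-381-3p with these names was -0.07, with quartiles of -0.39 and 0.20.

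miR-381-3p and miR-409-3p had an r of 0.89 (adjusted permutation p 0.00219) and a rho of 0.89 (adjusted permutation p 0.00153). Without the 2 farthest sera r was 0.55 (permutation p 0.125), so the size of r depends on these sera. Without HCM replicate 1 alone, r of miR-381-3p and miR-409-3p was 0.72 (adjusted permutation p 0.0221). For miR-376c-3p and miR-409-3p, r was 0.74 (adjusted permutation p 0.0295) and rho 0.76 (adjusted permutation p 0.0126). There too r was lower without the 2 farthest sera, at 0.55 (permutation p 0.131). Without HCM replicate 1 alone, r of miR-376c-3p and miR-409-3p was 0.32 (adjusted permutation p 0.356). miR-409-3p ranked second among the names most correlated with miR-381-3p, and sixth for miR-376c-3p.

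miR-494 followed miR-409-3p most closely of the 3 dim miRNAs, at an r of 0.71 (adjusted permutation p 0.0241) and a rho of 0.78 (adjusted permutation p 0.0126), and at 0.72 (permutation p 0.0265) without the 2 farthest sera. Without HCM replicate 5 the r of this pair was 0.64 (adjusted permutation p 0.0567). With miR-381-3p miR-494 had an r of 0.57 (adjusted permutation p 0.0772) and a rho of 0.66 (adjusted permutation p 0.0350). With miR-376c-3p it had an r of 0.49 (adjusted permutation p 0.125) and a rho of 0.65 (adjusted permutation p 0.0350). Without the 2 farthest sera these r values were 0.37 (permutation p 0.337) and 0.43 (permutation p 0.260). Among the 542 other names ranked by r with miR-494, miR-409-3p was 10th, miR-381-3p 38th and miR-376c-3p 49th. The median r of miR-494 with these names was -0.01, with quartiles of -0.40 and 0.24. In all, 4 of 6 relations among the 4 miRNAs passed by r and 6 of 6 by rho. By rho, miR-494 was thus positively related within HCM to the 3 miRNAs from which it differed in direction between the groups. That difference in direction did not hold after normexp. By r, only the relation of miR-494 with miR-409-3p passed.

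Computed on the second probes, an alternative chosen after seeing the data, 4 of 6 relations passed by r and 4 of 6 by rho, and miR-381-3p and miR-376c-3p had an r of 0.98. The rho of miR-494 was then 0.44 with miR-381-3p (adjusted permutation p 0.178) and 0.56 with miR-376c-3p (adjusted permutation p 0.0921), both short of the threshold. On the deposited log2 values 6 of 6 passed, and the r of miR-494 with miR-381-3p and miR-376c-3p was 0.75 and 0.73. A slide held at most 4 HCM arrays, too few for a relation within a slide. In healthy serum only miR-409-3p and miR-494 were above the floor on at least 6 arrays, and their r was -0.10 (permutation p 0.790) and their rho 0.06 (permutation p 0.844). Without the 2 farthest sera r was 0.03. Whether this differs from the r in HCM was not tested. For miR-409-3p, healthy replicates 16, 20, 21, 22, 23 and 25 lay above the floor although the probe was not detected there. Healthy replicates 14 and 15 were at the floor although it was detected. The healthy r of this pair thus rests largely on signal that was not called detected.

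**Figure D4:**
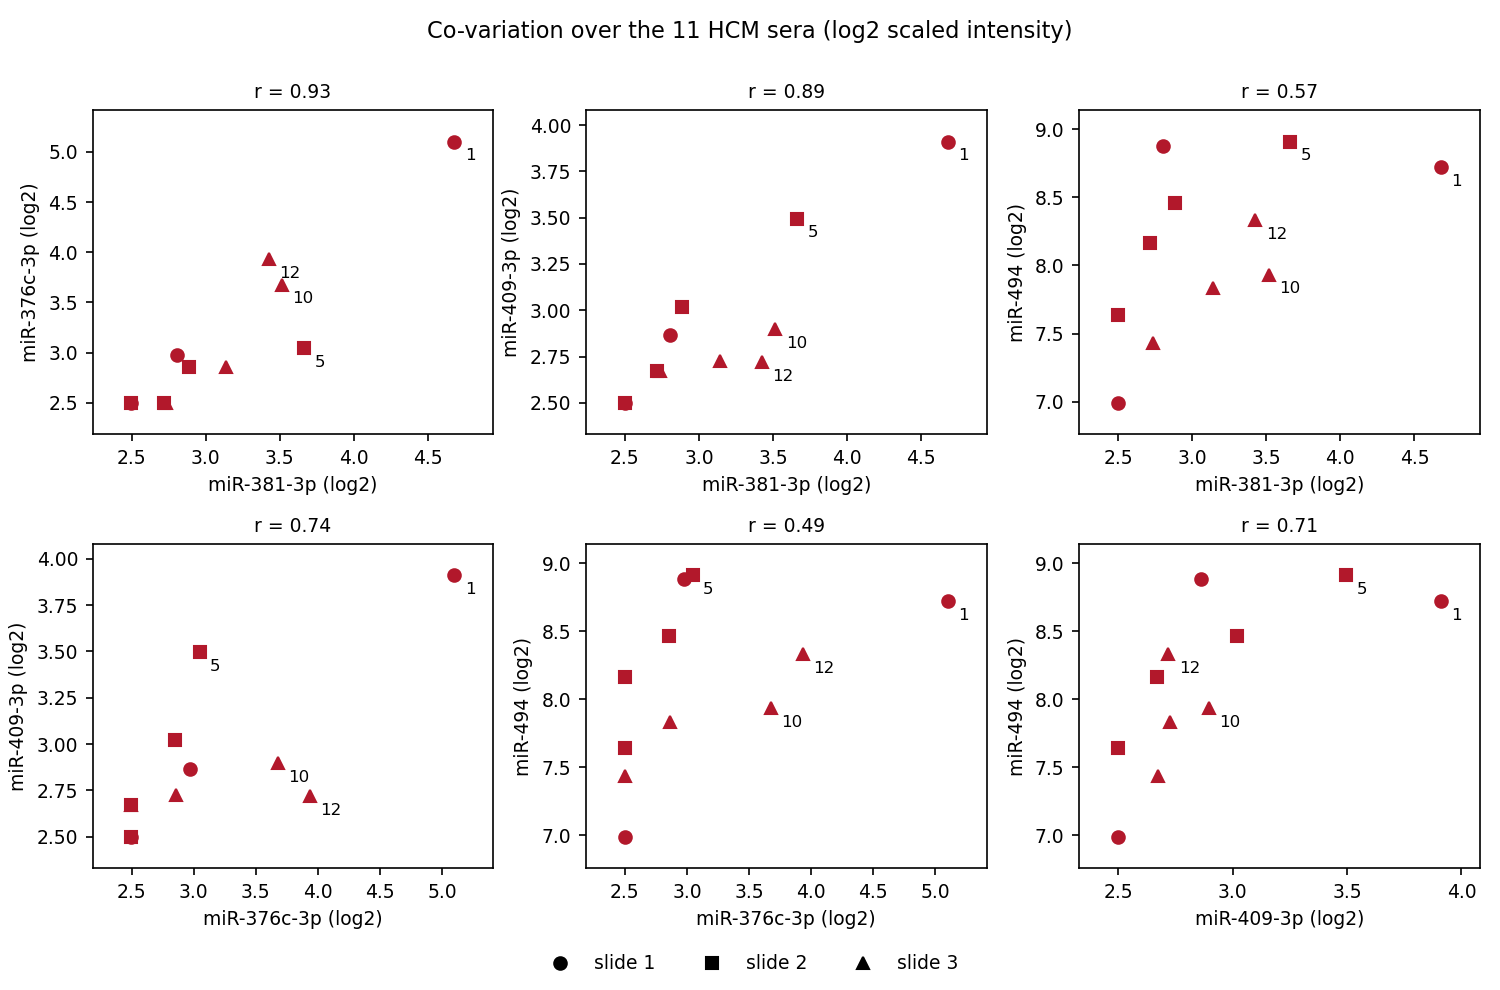
Co-variation of the 4 miRNAs over the 11 HCM sera, as log2 scaled intensity on both axes, 1 panel per pair with its Pearson r and marker shapes for the slide; the numbers are HCM replicates 1, 5, 10 and 12. HCM replicate 1 stands at the upper right in each of the 3 panels of the dim miRNAs, and the r values run from 0.49 to 0.93.

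Array brightness and red cell RNA were set against the same levels. Over the 11 HCM sera, 0 of 12 relations of the 4 miRNAs with the log2 75th percentile, the number of names detected and the log2 difference of miR-451a and miR-23a-3p passed, and 0 had an unadjusted permutation p under 0.05. The r values ran from -0.57 to 0.48. The lowest belonged to miR-409-3p and the red cell measure (adjusted permutation p 0.384, rho -0.36), at -0.49 without the 2 farthest sera. The highest belonged to miR-494 and the log2 75th percentile (adjusted permutation p 0.384, rho 0.32), at 0.12 without the 2 farthest. Without HCM replicate 1, 0 of 12 passed, but the r with the log2 75th percentile was 0.75 for miR-381-3p (adjusted permutation p 0.0542) and 0.71 for miR-376c-3p (adjusted permutation p 0.0615), against 0.37 and 0.33 with it. With the number of names detected it was 0.73 and 0.77 without that serum (adjusted permutation p 0.0542 each), against 0.38 for each with it. The part of array brightness in the relations among the miRNAs was not tested. Within the healthy sera, an alternative chosen after seeing the data, 0 of 6 relations of miR-409-3p and miR-494 passed, with r from -0.50 to 0.29. Of these, miR-409-3p and the log2 75th percentile had a rho of -0.63 (unadjusted permutation p 0.0318, adjusted 0.191) and an r of -0.13 without the 2 farthest sera. Most healthy values of miR-409-3p above the floor came from arrays where the probe was not called detected. With 11 or 12 sera, relations of moderate strength may go unseen.

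By likeness of pattern over the 11 HCM sera, the 3 names closest to each miRNA outside the cluster were the following. For miR-381-3p they were miR-497-5p with an r of 0.81, miR-324-3p with 0.78 and miR-181b-5p with 0.74. For miR-376c-3p they were miR-4299 with 0.79, miR-4793-5p with 0.77 and miR-497-5p with 0.75. The closest to miR-409-3p were miR-181b-5p at 0.85, miR-324-3p at 0.80 and miR-497-5p at 0.79, so 3 names were shared with miR-381-3p. The closest to miR-494 were miR-4454 at 0.82, miR-1260b at 0.78 and miR-212-3p at 0.77, none shared with the other 3. These values are the highest among all tested names outside the cluster and are given as a description.

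The other names of the cluster were looked at beside the 4. Of 73 array names from 51 human miRNA stems of the cluster, 62 were detected on no array (84.9%), among them miR-127-3p and miR-379-5p. Of all 2026 names, with the 139 viral ones included, 1298 were detected on no array (64.1%). Of the 11 that were detected, 10 were tested. The tested names other than the 4 were miR-1185-1-3p, miR-1185-2-3p, miR-134, miR-370, miR-431-3p and miR-665. Their HCM minus healthy differences were 0.32, 0.01, -0.10, 0.27, 0.14 and -0.17, of which 0 passed. Of all 10, 7 were positive and 3 negative, with a median of 0.18 beside -0.10 over all tested names, and 4 of the 10 were chosen for their difference.

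Some of these names were brighter than the 3 dim miRNAs and present in nearly every serum. miR-1185-1-3p was detected on all 23 arrays, at log2 levels of 7.06 ± 0.44 (SD, n = 11) in HCM and 6.74 ± 0.61 (SD, n = 12) in healthy serum. miR-370 was also detected on all 23, at 6.34 ± 0.59 (SD, n = 11) and 6.07 ± 0.79 (SD, n = 12). The groups overlapped over most of their range for each of them. Over the 11 HCM sera, 0 of 24 relations between the 4 miRNAs and these 6 names passed, and 1 had an unadjusted permutation p under 0.05. The r values ran from -0.38 to 0.62, and the highest, with that p, was miR-494 with miR-431-3p (adjusted permutation p 0.700, rho 0.42), at 0.48 without the 2 farthest sera.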

How the data were processed

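Spot intensity, linear and already background subtracted, was read from the output of Agilent Feature Extraction 10.7.3.1 (per the file headers). The arrays were not normalized to each other in it. The detection and outlier flags of each spot, other measures of 0 or 1, were taken from it too, per the file headers. The series table deposited by the authors holds log2 values, whose scale was checked against the intensities (r per array from 0.987 to 0.9998, slope from 0.950 to 0.980 above an intensity of 8). Their column medians lay between 2.98 and 3.315, and their normalization and centring are not given in the sources used here. Control and outlier spots (1.81% to 3.95% of miRNA spots) were left out, spots of a probe were averaged, and arrays were set to a common 75th percentile of 508 probes. The floor was the 5th percentile of scaled signals well above background. Group and slide tests used limma 3.58.1 (lmFit, eBayes) in R 4.3.3 with Benjamini-Hochberg adjustment over 543 names. The group test was also run on simulated data. These were drawn without a floor, so they say nothing about names with a whole group at the floor. Python 3.11.15 with scipy 1.17.1 gave the permutation tests. The number of arrays limits the precision. The 4 miRNAs, the lists and the alternatives were chosen with earlier results of these data known. The named miRNAs were the 4, the tested names of the cluster, the nearest miR-376 relatives, and for each of the 4 the 3 names outside the cluster with the highest r. As the files hold no mean spot signal, normexp used the median signal with an offset of 50. Probe and miRNA sequences were not used here.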

Additional observations from a re-analysis of the deposited data

How the results depend on the processing

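No paired analysis was possible because the HCM and healthy arrays share no replicate number. The count of called names was 5 on the deposited log2 values, 2 with the lower floor and 4 on the total gene signal, against 0 in the main processing. For miR-381-3p the HCM minus healthy difference was 1.38 on the deposited values, 1.99 with the lower floor, 0.12 with the higher floor, 1.54 on the total gene signal and -0.10 after normexp. For miR-376c-3p it was 1.48, 2.33 and 1.61 on the deposited values, with the lower floor and on the total gene signal, and -0.067 after normexp, and with the higher floor it was 0.20. For miR-409-3p it was 1.21 on the total gene signal and -0.22 after normexp. The floors set the size for dim names by construction, and for normexp and the total gene signal the cause was not tested. Leaving out 1 array at a time gave 0 calls each time, and differences from 0.49 to 0.71 for miR-381-3p, 0.44 to 0.70 for miR-376c-3p, 0.11 to 0.27 for miR-409-3p and -0.88 to -0.62 for miR-494. For miR-381-3p and miR-376c-3p, leaving out a healthy array could not change the difference, since all healthy values were at the floor. The lowest difference of miR-409-3p was without HCM replicate 1. Between 3 and 5 of the 6 relations passed by r when 1 HCM array was left out, and 6 passed without scaling, on the total gene signal, on the deposited values and with the lower floor. Without scaling, 1 of 12 relations with array measures passed, that of miR-494 with the log2 75th percentile (r = 0.82, adjusted permutation p 0.0274). With array measures, r of miR-381-3p and miR-376c-3p reached 0.75 and 0.71 (log2 75th percentile) and 0.73 and 0.77 (names detected) without HCM replicate 1, short of the threshold. Some other relations with array measures changed sign without single arrays. The red cell measure had r from -0.61 to 0.11 with miR-381-3p and from -0.52 to 0.25 with miR-376c-3p, the highest without HCM replicate 1. miR-409-3p had r from -0.050 to 0.41 with the log2 75th percentile and from -0.093 to 0.33 with the number of names detected, and miR-494 from -0.060 to 0.46 with the latter, the lowest without HCM replicate 2. Dim signal limits 3 of the miRNAs. On HCM arrays miR-381-3p and miR-409-3p were at the floor on 2 each and miR-376c-3p on 4, and on healthy arrays on 12, 4 and 12.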

Other observations

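In the healthy sera, the tested names with the highest and lowest correlation with miR-494 were looked up after seeing the data. The lowest r over the 12 healthy sera were those of miR-4281 at -0.92, miR-3665 at -0.91 and miR-2861 at -0.91. Over the 11 HCM sera the same names had r of -0.58, -0.64 and -0.70 with miR-494. The highest in healthy serum were miR-3132 at 0.80, miR-370 at 0.79, itself a name of the cluster, and miR-4659a-3p at 0.78. In HCM serum these had r of 0.10, 0.27 and -0.24. All arrays were scaled by their own brightness, which these points share.

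In the table deposited by the authors, the second probe of miR-376c-3p had a log2 value of 8.84 in HCM replicate 3, where the next highest HCM serum had 4.96 and the brighter probe of the same name had 3.28 in the same serum. In the scanner file, 1 of the 15 spots of that probe, marked as an outlier by the scanner software, read an intensity of 7577. The mean intensity of the probe was 512 with that spot and 7.30 without it. On the deposited values the HCM minus healthy difference of that probe was 2.02 with this serum and 1.49 without it.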
